A study of Mus musculus with 20 samples.

Results

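The 9 genes that set the fate of mitochondrial pyruvate and were followed in adipocyte ribosome-bound RNA are the pyruvate dehydrogenase subunits Pdha1, Pdhb and Dlat, the pyruvate dehydrogenase kinases Pdk1, Pdk2 and Pdk4, pyruvate carboxylase (Pcx) and both subunits of the mitochondrial pyruvate carrier (Mpc1 and Mpc2). The members were chosen by name, and each of the 9 symbols matched 1 of the 46078 gene rows of the count table. All 9 passed the filter on low counts. On mm10 with GENCODE vM21, Pdha1 lies on the minus strand at chrX:160122209-160138413, Pdhb on the minus strand at chr14:8165996-8173025 and Dlat on the minus strand at chr9:50634633-50659780. The kinase genes lie at chr2:71873224-71903858 (Pdk1, plus strand), chr11:95026258-95041354 (Pdk2, minus strand) and chr6:5483351-5496309 (Pdk4, minus strand). Pcx lies at chr19:4510472-4621752, Mpc1 at chr17:8282904-8297661 and Mpc2 at chr1:165460637-165481214, all on the plus strand. Counts were summed over whole genes, so no exon or transcript is told apart.

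Pyruvate made by glycolysis enters the mitochondrial matrix through the carrier formed by MPC1 and MPC2. There the pyruvate dehydrogenase complex turns it into acetyl-CoA, which adipocytes use for oxidation and fatty acid synthesis, whereas pyruvate carboxylase turns it into oxaloacetate, which refills the citric acid cycle and supports fatty acid synthesis and glyceroneogenesis. The kinases phosphorylate the E1 subunit encoded by Pdha1 and thereby switch the complex off. PDK4 is known as the isoform that rises with fasting and fatty acid supply, and PDK1 as a target of hypoxia signalling.

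Translating ribosome affinity purification with sequencing (TRAP-seq) was performed on epididymal adipose tissue (epiAT) of 20 male AdipoERCre x NuTRAP mice (labelled C576BL6 background), in which a tamoxifen-activated Cre under the adiponectin promoter switches on the NuTRAP reporter, which puts a GFP tag on the ribosomes of adipocytes. All mice, controls included, carried these alleles and had received tamoxifen. Mice on chow were 18 weeks (C), 26 weeks (CC_s), 31 weeks (CC_l) or 39 weeks (CCC) old. Obese mice had eaten high-fat diet (HFD) for 12 weeks and were 18 weeks old (H), or for 25 weeks and were 31 weeks old (HH). Weight loss (WL) mice had then been returned to chow for 8 weeks and were 26 weeks (HC, after 12 weeks of HFD) or 39 weeks old (HHC, after 25 weeks of HFD). The paper states that controls ate a low-fat chow during the HFD period. In the WL period controls and WL mice both received a different chow. CC_s and CCC therefore differed from C and CC_l in chow as well as in age. C, H, CC_s and HC held 3 mice each, and CC_l, HH, CCC and HHC held 2 mice each. The chow group of the same age served as the control of each HFD or WL group, to ask which changes came with obesity and which were seen after WL. A library reports RNA on tagged ribosomes of bulk tissue, so that fewer cells of a type and less RNA per cell cannot be told apart.

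Depth ranged from 10710277 to 36738954 counts per library, at which 3 counts stood at 0.0817 to 0.280 counts per 1000000 (CPM). All other CPM values use library sizes scaled with TMM factors. The lowest count of any member in any library was 144 (Mpc1 in HHC mouse 1), so no member was near this limit. All 8 adipocyte markers (Adipoq, Plin1, Cidec, Fabp4, Lipe, Lep, Pnpla2 and Cfd) were detected, and their summed level ran from 15270 CPM in HC mouse 3 to 131000 CPM in C mouse 3. The summed nuclear-retained RNAs ran from 2756 to 37140 CPM and exceeded 15000 CPM in 4 libraries (C mice 1 and 2, HC mouse 3 and CCC mouse 2). Macrophage markers, all 7 detected, summed to 136.9 to 654.3 CPM in chow mice, to 433.9 to 3585 CPM in H and HH mice and to 394.1 to 1050 CPM after WL. Markers of spermatids reached 3360 CPM in CC_l mouse 1 and those of epididymal epithelium 1827 CPM in C mouse 1. The part these differences had in the results was not tested, except where values without a library are given.

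The 3 kinase genes are shown first with the sequence before their start sites, because their levels parted in these data. The sequences are RefSeq promoters on GRCm38.p6, read 5′ to 3′, from 250 bases before the start (219 bases for Pdk4, whose annotated GENCODE transcript begins earlier). Capitals mark the CCAAT, GC and E-box motifs that are spelled out and counted next, searched on both strands, so that a box on the other strand appears in its complementary letters. The Pdk4 stretch lies on the minus strand at chr6:5496310-5496528, that of Pdk2 on the minus strand at chr11:95041372-95041621 and that of Pdk1 on the plus strand at chr2:71872974-71873223.
Pdk4 promoter: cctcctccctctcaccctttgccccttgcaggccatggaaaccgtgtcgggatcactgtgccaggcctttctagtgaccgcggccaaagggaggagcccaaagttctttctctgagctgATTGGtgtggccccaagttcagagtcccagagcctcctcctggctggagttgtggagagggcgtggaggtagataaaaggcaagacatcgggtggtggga
Pdk2 promoter: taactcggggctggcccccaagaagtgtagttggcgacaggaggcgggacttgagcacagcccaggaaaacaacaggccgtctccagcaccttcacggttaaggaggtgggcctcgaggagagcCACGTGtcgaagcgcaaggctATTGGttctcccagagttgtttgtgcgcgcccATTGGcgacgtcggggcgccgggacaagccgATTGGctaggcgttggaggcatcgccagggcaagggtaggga
Pdk1 promoter: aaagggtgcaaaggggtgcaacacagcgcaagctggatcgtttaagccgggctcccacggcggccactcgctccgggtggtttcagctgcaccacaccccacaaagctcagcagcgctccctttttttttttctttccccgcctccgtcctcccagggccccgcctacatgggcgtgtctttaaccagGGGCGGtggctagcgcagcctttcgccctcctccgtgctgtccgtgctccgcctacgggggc

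The Pdk2 stretch held 3 CCAAT boxes and 1 CACGTG E-box, the Pdk4 stretch held 1 CCAAT box, and the Pdk1 stretch held 1 GGGCGG box. Over the 250 bases before the first listed RefSeq start, 6 of the 9 members held CCAAT (33.8% of all 32851 RefSeq promoters), 6 held GGGCGG (32.7%) and 2, Pdk2 and Pcx, held CACGTG (6.02%). The nuclear receptor half-site AGGTCA, the forkhead motif TGTTTAC and TATAAA were in none of the 9 windows and in 14%, 3.17% and 12.4% of all promoters. These matches are descriptions of letters only.

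Compared per length of annotated exon, the carboxylase, the carrier subunit Mpc2 and the E1 beta subunit gene Pdhb had the highest levels, with medians over the 20 libraries of 78.7, 77.0 and 73.7 CPM per kilobase. Pdha1, Mpc1 and Dlat followed with 37.8, 31.0 and 28.8 CPM per kilobase. The kinases lay lower, with medians of 16.8 for Pdk2, 5.92 for Pdk4 and 5.41 for Pdk1. Ranges of neighbours in this order overlapped widely (Pcx, 29.6 to 227.9; Pdk4, 2.52 to 85.3 CPM per kilobase). Of the rest of the complex, the E3 subunit gene Dld had a median of 69.3 and the E3-binding protein gene Pdhx one of 13.2 CPM per kilobase. The remaining kinase gene Pdk3 had 4.03. The phosphatase genes Pdp2 and Pdp1, whose products switch the complex on again, had 4.38 and 3.69. Pdpr, which encodes a regulatory subunit of the phosphatase, had 1.61. Pdha2, the testis counterpart of Pdha1, was at 0 in 15 of the 20 libraries and had 980 counts in CC_l mouse 1, the library with the most spermatid RNA.

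Pdk4 was the member that was higher in both obese and both WL groups. In each of the 4 comparisons every HFD or WL mouse, 10 of 10, lay above every chow mouse of its own age. Of the 21464 genes tested, 0.405% were higher without overlap in all 4 comparisons and 0.233% were lower without overlap in all 4. The 4 comparisons used different control mice.

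Pdk4 read 9.59, 8.83 and 14.3 CPM in the C mice and 16.6, 20.1 and 18.7 CPM in the H mice. The log2 fold change was 0.76 (SE 0.41), a 1.69-fold difference that did not pass the call rule used here (a nominal edgeR quasi-likelihood p under 0.01 together with a log2 fold change of 1 or more in size), with an adjusted p of 0.369. The groups did not overlap, as for 23.9% of all genes in this comparison. C mice 1 and 2, the lower ones, were libraries rich in nuclear-retained RNA, and the value was 0.48 with those libraries left out. After WL in the shorter arm, Pdk4 stood at 52.0, 59.4 and 58.1 CPM in HC against 21.5, 28.2 and 28.3 CPM in CC_s. The log2 fold change of 1.12 (SE 0.42) had a nominal edgeR p of 0.0151 and an adjusted p of 0.538. Groups failed to overlap in 13.8% of all genes here. The H mice, though above their own controls, all lay below the CC_s mice, the chow controls of HC. The CC_s mice were older than the C and H mice and had been moved to another chow.

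In the longer arm Pdk4 read 14.5 and 16.5 CPM in CC_l and 30.2 and 43.7 CPM in HH. The log2 fold change was 1.26 (SE 0.51; adjusted p = 0.221), and 55.3% of all genes did not overlap in this comparison of 2 against 2 mice. After WL the CCC mice read 14.2 and 14.1 CPM and the HHC mice 299.7 and 56.8 CPM. Both HHC mice were far above both controls, and HHC mouse 1, whose library was the shallowest with 10710277 counts, was the higher one. That library also had the highest summed lymphocyte markers of the 20, with 77.8 CPM against 14.5 CPM in HHC mouse 2 and 14.9 and 18.0 CPM in CCC, and their part in the Pdk4 value was not tested. The log2 fold change of 3.66 (SE 0.56), a 12.6-fold difference, passed the call rule with a nominal edgeR p of 4.54e-06, and the adjusted p was 0.0974. Without HHC mouse 1 the log2 fold change was 2.00 and still passed the call rule (adjusted p = 0.358), and without HHC mouse 2 it was 4.40.

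**Figure D1:**
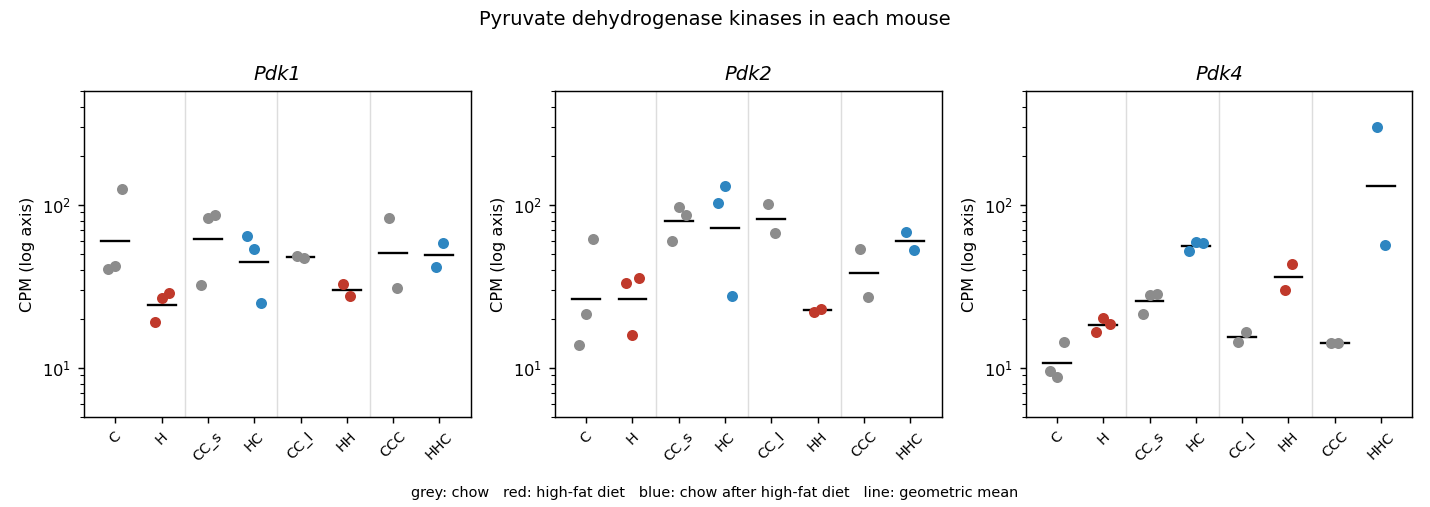
Levels of Pdk1, Pdk2 and Pdk4 in CPM (log axis) in each of the 20 mice, by group, with points for mice and lines for geometric means. The Pdk4 points of H, HC, HH and HHC all sit above those of the chow group to their left, whereas Pdk1 in H and Pdk2 in HH sit below their controls.

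The difference between the effect in HH and the effect in HHC was tested for Pdk4 with its own contrast. It was -2.40 on the log2 scale (SE 0.72; edgeR adjusted p = 0.116), so that Pdk4 exceeded its control by more after WL than during obesity, without passing an adjusted threshold of 0.05. Without HHC mouse 1 the difference was -0.72 with an adjusted p of 0.5001. For the shorter arm the difference between the effects in H and HC was -0.36 (SE 0.58; adjusted p = 0.898). At this threshold 0 of the 9 members differed between effects in the short arm (0% of all genes by edgeR; no member at a nominal p under 0.05), and 0 of 9 in the long arm (0.815% of all genes; Pdk4 and Pdk2 at a nominal p under 0.05).

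Pdk1, the hypoxia-responsive kinase, was lower in H. The C mice read 40.5, 42.5 and 125.5 CPM and the H mice 19.0, 26.8 and 28.7 CPM. All H mice lay below all C mice. The log2 fold change was -1.49 (SE 0.51), a 2.80-fold lower level, and passed the call rule with a nominal edgeR p of 0.00925 and an adjusted p of 0.142. C mouse 3 was the highest of all 20 libraries, and without it the log2 fold change was -0.74 and was not called. The call was also lost without any 1 of the 3 H mice, with values of -1.33 to -1.60, and held without C mouse 1 (-1.68) or C mouse 2 (-1.75).

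Pdk1 did not pass the rule in the other comparisons. HC read 64.7, 53.7 and 25.1 CPM against 32.0, 82.7 and 87.4 CPM in CC_s, a log2 fold change of -0.49 with a 95% interval from -1.47 to 0.48. HH read 32.6 and 27.4 CPM, below 48.5 and 47.0 CPM in CC_l (log2 fold change -0.67, SE 0.61, adjusted p = 0.595). HHC read 41.7 and 58.2 CPM, within the CCC values of 82.7 and 31.1 CPM.

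Pdk2, the kinase with the highest level per length of the 3, was lower in HH than in CC_l. The CC_l mice read 100.9 (mouse 1, with the spermatid RNA) and 67.6 CPM and the HH mice 22.1 and 23.1 CPM. Without CC_l mouse 1 the log2 fold change was -1.57. The groups were apart, with a log2 fold change of -1.90 (SE 0.70), a 3.73-fold lower level, that had a nominal edgeR p of 0.0141 and did not pass the call rule (adjusted p = 0.171). In HHC Pdk2 read 68.7 and 52.6 CPM against 53.5 and 27.1 CPM in CCC (log2 fold change 0.59, SE 0.68). The difference between the HH and HHC effects was -2.49 (SE 0.97; edgeR adjusted p = 0.225).

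In the shorter arm the Pdk2 groups overlapped. C read 13.7, 21.5 and 61.9 CPM and H 33.2, 15.9 and 35.4 CPM, a log2 fold change of -0.20 with a 95% interval from -1.28 to 0.88, which turned to 0.67 without C mouse 3. CC_s read 59.97, 96.7 and 87.2 CPM and HC 102.4, 130.5 and 27.7 CPM, a log2 fold change of 0.10, which turned to -0.32 without HC mouse 2. The low value belonged to HC mouse 3, which also had the lowest summed adipocyte markers.

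The makeup of the kinase pool was then computed within each library, which cancels library size, as the share of Pdk4 in the reads per kilobase of Pdk1, Pdk2, Pdk3 and Pdk4. In C the Pdk4 share was 18.4%, 15.4% and 9.34%, and in H 23.1%, 34.6% and 22.7%. The mean difference was 12.4 percentage points, the groups did not overlap, and the exact two-sided permutation p was 0.1, the smallest that 3 against 3 mice can give. In CC_s it was 17.5%, 14.8% and 15.8%, and in HC 22.5%, 24.4% and 52.4%. This was a mean difference of 17.1 points with the same exact permutation p of 0.1. The 52.4% came from HC mouse 3, in which Pdk1 and Pdk2 were low while Pdk4 was not.

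In the longer arm the Pdk4 share was 8.09% and 11.6% in CC_l and 33.8% and 46.8% in HH, 30.5 points higher on average. In CCC it was 10.6% and 19.6%, and in HHC 74.4% and 34.3%, 39.3 points higher on average. For both the exact two-sided permutation p was 0.333, the smallest that 2 against 2 mice can give, so neither design could reach 0.05. In the chow groups Pdk2 held 29.3% to 62.6% of the kinase reads per kilobase and Pdk4 8.09% to 19.6%. In HH Pdk2 held 27.4% and 27.5%, below the Pdk4 share in both mice. Undivided by length, the Pdk4 share was higher without overlap in all 4 comparisons too, with 6.77% to 17.1% over the chow mice and 20.5% to 72% over the others.

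**Figure D2:**
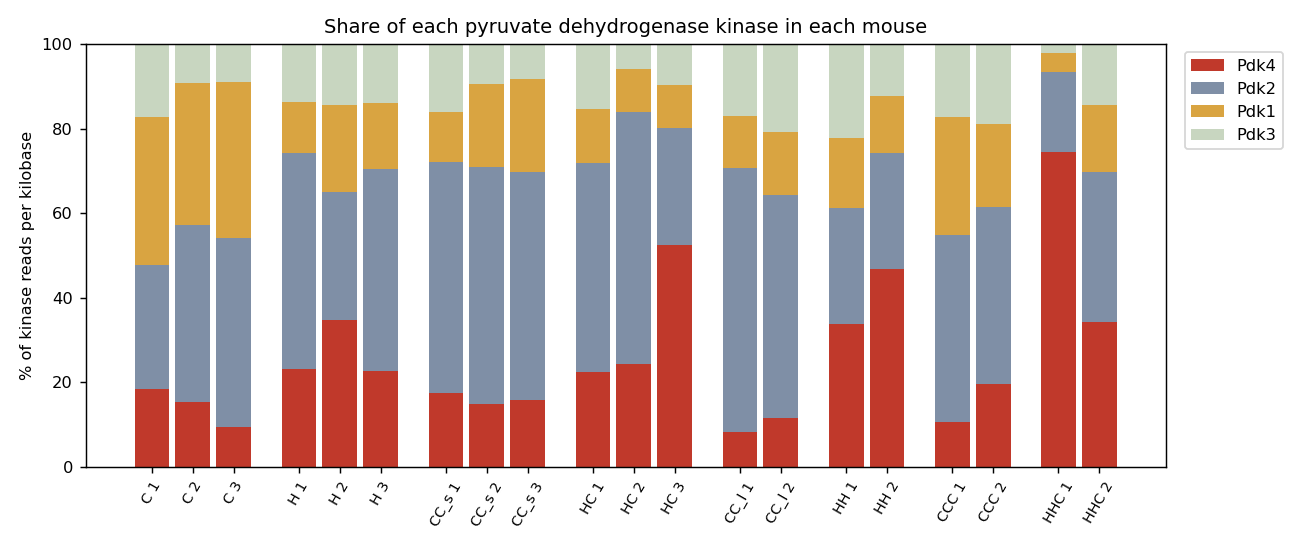
Share of Pdk1, Pdk2, Pdk3 and Pdk4 in the summed kinase reads per kilobase of exon (%, stacked to 100) in each of the 20 mice, ordered by group. The Pdk4 part runs from 8.09% to 19.6% in the chow mice and from 22.5% to 74.4% in the mice with an HFD history.

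Most of the other members had lower mean levels than their controls. In H 8 of the 9 members had a negative log2 fold change (median of the 9, -0.67; median of all tested genes, -0.15), and in HH 8 of 9 did (median -1.09; all genes -0.23). After WL 6 of 9 were negative in HC (median -0.49; all genes 0.27) and 6 of 9 in HHC (median -0.26; all genes -0.06). In H, HC and HHC these counts depended on single mice. Without C mouse 3 only 4 of 9 were negative in H (median 0.44), without HC mouse 3 there were 5 in HC (median -0.02), and in HHC there were 3 without CCC mouse 1 (median 1.16) or without HHC mouse 1 (median 0.16). In HH the count stayed at 7 or 8 of 9 with each mouse left out in turn. Few of these passed the call rule. In H 1 member was called, Pdk1, lower, where 6.49% of all genes were called (3.57% higher and 2.92% lower). In HC no member was called (1.74% of all genes, 1.57% higher and 0.172% lower; Pdk4 alone had a nominal p under 0.05, and 1 member was called with DESeq2). In HH no member was called (6.79%, 4.92% higher and 1.88% lower; Pdk2 and Pdk4 had a nominal p under 0.05, and 1 member was called with DESeq2). In HHC 1 was called, Pdk4, higher (3.12%, 0.447% higher and 2.67% lower). At an adjusted p under 0.05 no member passed in any comparison, where 2.12%, 0%, 2.07% and 0% of all genes did in H, HC, HH and HHC.

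Groups did not overlap for 3 of the 9 members in H, 2 in HC, 8 in HH and 4 in HHC, against 23.9%, 13.8%, 55.3% and 28.8% of all genes. In H they were Pdk4, higher, and Pdha1 and Pdk1, lower. In HC they were Pdk4, higher, and Dlat, lower. In HH they were all members but Dlat, with Pdk4 higher and the rest lower. In HHC they were Pdk4, higher, and Pdhb, Dlat and Pcx, lower.

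The fits, but not the overlap counts, were repeated without the 4 libraries above 15000 CPM of nuclear-retained RNA. Leaving them out left C mouse 3 as the lone C mouse. Log2 fold changes in H were then -2.28 for Pdha1, -2.39 for Pdhb, -1.61 for Dlat, -2.22 for Pdk1, -1.75 for Pcx and -1.50 for Mpc2. In HH no mouse was left out, and the estimate of the spread changed. There 4 members were called, all lower (Pdha1 -1.32, Pdhb -1.16, Pdk2 -1.95 and Pcx -1.38), where 2472 of 22811 genes were called in either direction. In HHC, with CCC mouse 1 as the lone CCC mouse, Pdk4 was at 3.74. In HC no member was called, where 239 of 22811 genes were. Pdk4 was at 0.48 in H and at 1.05 in HC. This setting was added after the values were known.

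**Figure D3:**
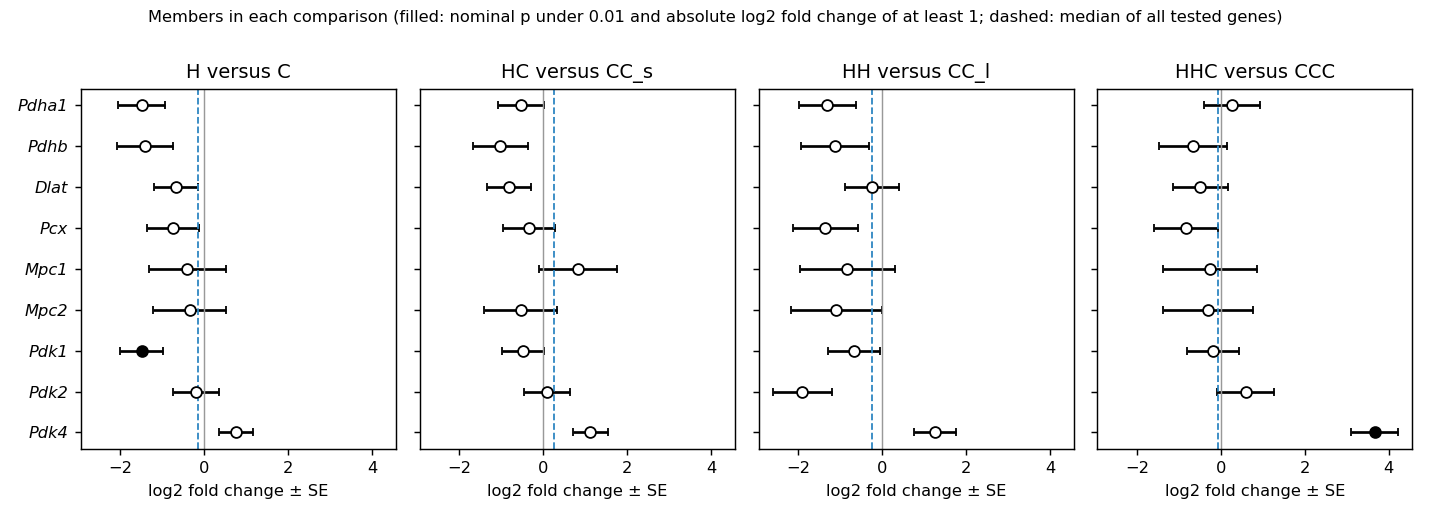
Log2 fold change with its standard error for each of the 9 members in the 4 comparisons with the chow control of the same age, with filled points for members that passed the call rule and a dashed line at the median of all tested genes. Pdk4 lies right of 0 in each panel, at 0.76, 1.12, 1.26 and 3.66, and most other members lie left of it.

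Pdha1, which encodes the phosphorylated E1 alpha subunit, was lowest in the obese groups. It read 132.0, 98.3 and 380.4 CPM in C and 67.1, 59.3 and 90.5 CPM in H. The H mice lay below all C mice, with a log2 fold change of -1.49 (SE 0.56; edgeR adjusted p = 0.179), which was -0.67 without C mouse 3. In the longer arm it read 156.5 and 184.6 CPM in CC_l and 61.1 and 77.7 CPM in HH. These were apart as well, with a log2 fold change of -1.30 (SE 0.68; adjusted p = 0.332).

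After WL the Pdha1 groups overlapped. CC_s read 206.4, 208.7 and 206.5 CPM, nearly the same in all 3 mice, and HC 221.4, 150.3 and 60.2 CPM (log2 fold change -0.53, 95% interval -1.60 to 0.55). CCC read 203.4 and 68.4 CPM and HHC 95.6 and 233.0 CPM. Their log2 fold change was 0.27, with a 95% interval from -1.04 to 1.58. It turned to -0.51 without HHC mouse 2 and to -0.24 without the 4 libraries named above. Pdha1 shares 16.1% of its exon bases with Map3k15 on the opposite strand, and since the strand setting of the counting is not stated, reads there cannot be assigned with certainty.

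Pdhb, the E1 beta subunit gene, ran from 45.6 CPM in HC mouse 3 to 883.8 CPM in C mouse 3. Its log2 fold change was -1.41 in H (SE 0.67; adjusted p = 0.293), -1.02 in HC (SE 0.66; adjusted p = 0.659), -1.12 in HH (SE 0.81; adjusted p = 0.484) and -0.67 in HHC (SE 0.81; adjusted p = 0.809). Its groups were apart in HH (177.5 and 179.1 CPM against 409.4 and 367.3 CPM) and HHC (210.8 and 298.8 CPM against 502.6 and 306.3 CPM). Of its 50-base words, 10.8% also occur in the pseudogene Gm6123.

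Dlat, which encodes the E2 acetyltransferase core, had smaller values. It was -0.67 in H (SE 0.53), -0.81 in HC (SE 0.53), -0.24 in HH (SE 0.65) and -0.49 in HHC (SE 0.65), with 0.552 as the lowest adjusted p. HC mice read 178.5, 141.3 and 47.3 CPM against 192.1, 208.7 and 242.5 CPM in CC_s and did not overlap them. In H the direction rested on C mouse 3, which read 403.1 CPM. Without it the value was 0.44.

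Pcx, pyruvate carboxylase, was one of the most abundant members and followed the subunits. It read 735.6 and 672.9 CPM in CC_l and 287.5 and 266.9 CPM in HH. HH was 2.54-fold lower without overlap (log2 fold change -1.35, SE 0.77), with an adjusted p of 0.371. In HHC it read 357.0 and 341.6 CPM against 591.7 and 655.7 CPM in CCC, again apart, with a log2 fold change of -0.84 (SE 0.76; adjusted p = 0.728).

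In the shorter arm Pcx read 179.3, 242.4 and 1083 CPM in C and 324.4, 203.5 and 369.5 CPM in H. The groups overlapped, and the log2 fold change of -0.75 turned to 0.50 without C mouse 3. HC read 610.7, 676.4 and 140.9 CPM against 378.2, 681.7 and 742.8 CPM in CC_s. HC differed by -0.34 on the log2 scale, with a 95% interval from -1.55 to 0.87, and was 0.09 without HC mouse 3.

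The balance of carboxylase to dehydrogenase was given as the log2 ratio of Pcx to Pdha1, each per kilobase, within a library. It was 0.09, 0.95 and 1.16 in C and 1.92, 1.43 and 1.68 in H, a mean difference of 0.94 without overlap (exact two-sided permutation p = 0.1, the smallest possible). In the other comparisons it differed by 0.14 (HC), -0.04 (HH) and -1.17 (HHC), and the groups overlapped. The HHC values spread widely, with 1.55 and 0.20 against 1.19 and 2.91.

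Mpc1 and Mpc2, whose products form the carrier together, had the widest spread within groups. Mpc1 ran from 12.1 CPM in HHC mouse 1 to 303.6 CPM in HC mouse 1, and within HHC it read 12.1 and 237.7 CPM. Its log2 fold changes of -0.40 (H), 0.84 (HC), -0.83 (HH) and -0.26 (HHC) had standard errors of 0.92 to 1.13, and the 95% interval in H, from -2.21 to 1.41, spanned changes of either sign. The groups were apart in HH, with 56.2 and 100.8 CPM against 146.3 and 133.5 CPM in CC_l. The HC value turned to -0.81 without HC mouse 1. Mpc1 counts are uncertain, because 15.3% of its 50-base words occur in 4930506C21Rik, a transcript on the opposite strand, and 11% in the pseudogene Mpc1-ps.

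Mpc2 ran from 75.5 CPM in HC mouse 3 to 1410 CPM in C mouse 3. It read 681.7 and 884.6 CPM in CC_l and 259.5 and 476.1 CPM in HH. These groups were apart, with a log2 fold change of -1.09 (SE 1.08; adjusted p = 0.628). In H the value was -0.34 (SE 0.87), and it turned to 1.42 without C mouse 3. In HC it was -0.53 and in HHC -0.31, both with overlapping groups.

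The log2 ratio of Mpc1 to Mpc2, per kilobase, showed how unequally both subunits were counted. It ran from -2.65 in HHC mouse 1 to 0.45 in HHC mouse 2, the same group. In HC it was 0.16, -1.41 and -0.56 against -2.21, -1.54 and -1.49 in CC_s. The groups were apart by 1.14 on average (exact two-sided permutation p = 0.1, the smallest possible). In H, HH and HHC the groups overlapped, with differences of -0.82, 0.25 and -1.09 and exact permutation p of 0.4, 0.667 and 1.

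**Figure D4:**
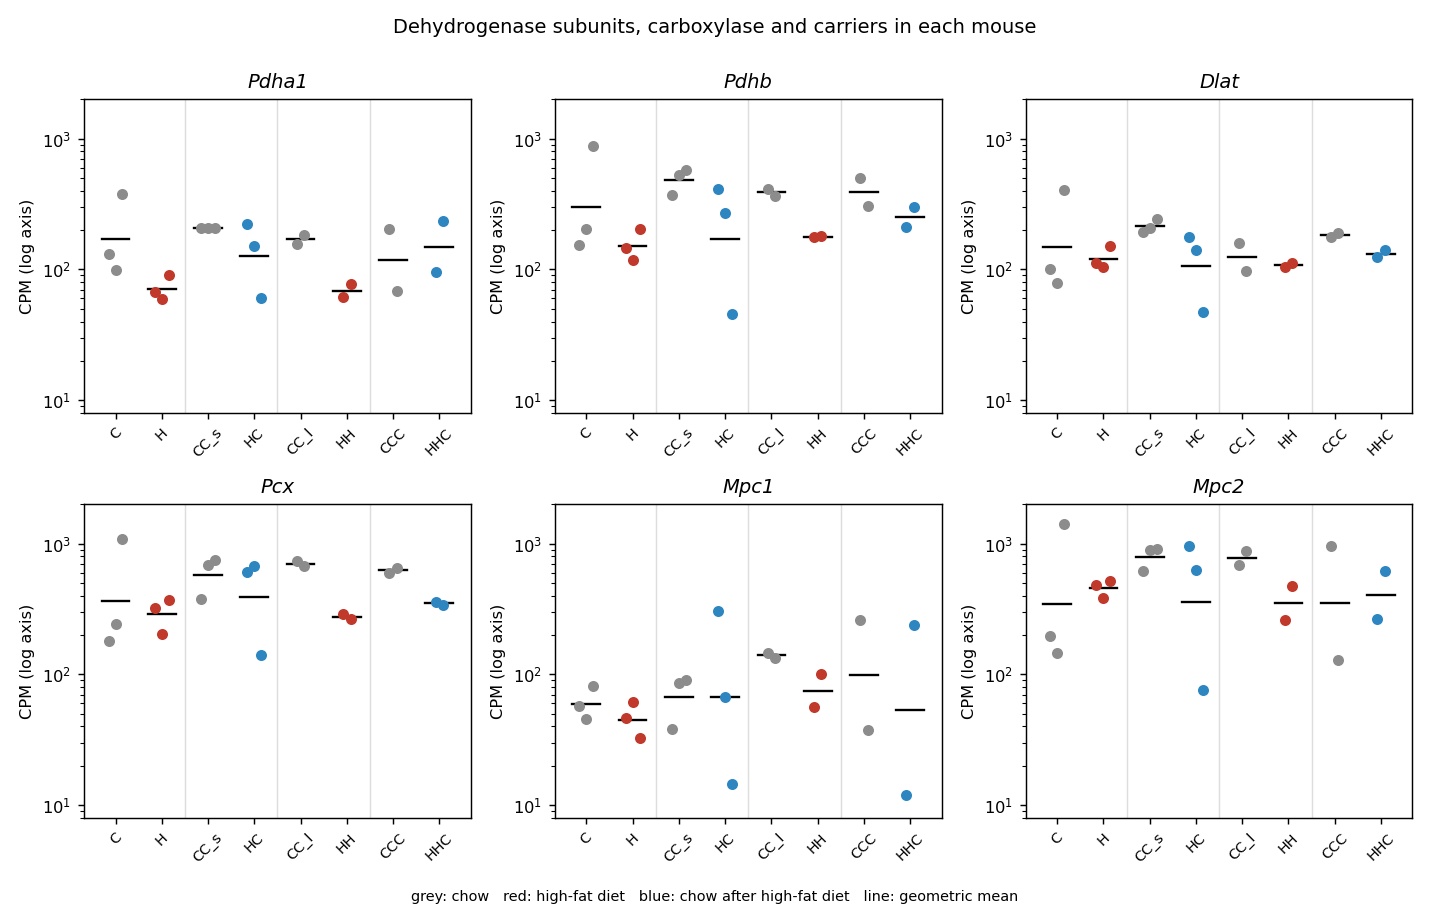
Levels of Pdha1, Pdhb, Dlat, Pcx, Mpc1 and Mpc2 in CPM (log axis) in each of the 20 mice by group, with points for mice and lines for geometric means. C mouse 3 is the highest C mouse in each panel, and in HH the points of Pdha1, Pdhb and Pcx lie below those of CC_l.

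Across the 20 libraries Pearson correlations of log2 CPM between the 8 members other than Pdk4 ran from 0.35 (Pdk2 with Mpc1) to 0.90 (Pdhb with Pcx), over libraries that share groups and depth. They were 0.89 between Pdhb and Dlat and 0.83 between Pdha1 and Pdhb, and lower for Mpc1, with 0.38 for Dlat and 0.47 for Pcx. Pdk4 had values of -0.25 (with Mpc1) to 0.34 (with Pdk2) with the other 8 members. The summed adipocyte markers moved with the members in the same way, with correlations of 0.88 for Mpc2, 0.87 for Pdha1, 0.84 for Pdhb, 0.74 for Pcx and 0.47 for Mpc1, and 0.03 for Pdk4. With the summed macrophage markers Pdha1 had -0.74 and Pdk4 0.34. The H mice had adipocyte sums of 31200 to 56070 CPM against 27640 to 131000 CPM in C, and the HH mice 26770 and 32020 CPM against 58580 and 60670 CPM in CC_l. Fabp4 weighed most in these sums, with means of 18990 CPM in HH and 35290 CPM in CC_l. The markers did not all move alike. In H Cfd had a mean of 785.4 CPM against 10620 CPM in C, and Lep one of 4413 CPM against 1089 CPM. The sums are therefore not an even measure of adipocyte content. The part of these sums in the lower levels of the dehydrogenase, carboxylase and carrier genes was not tested.

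**Figure D5:**
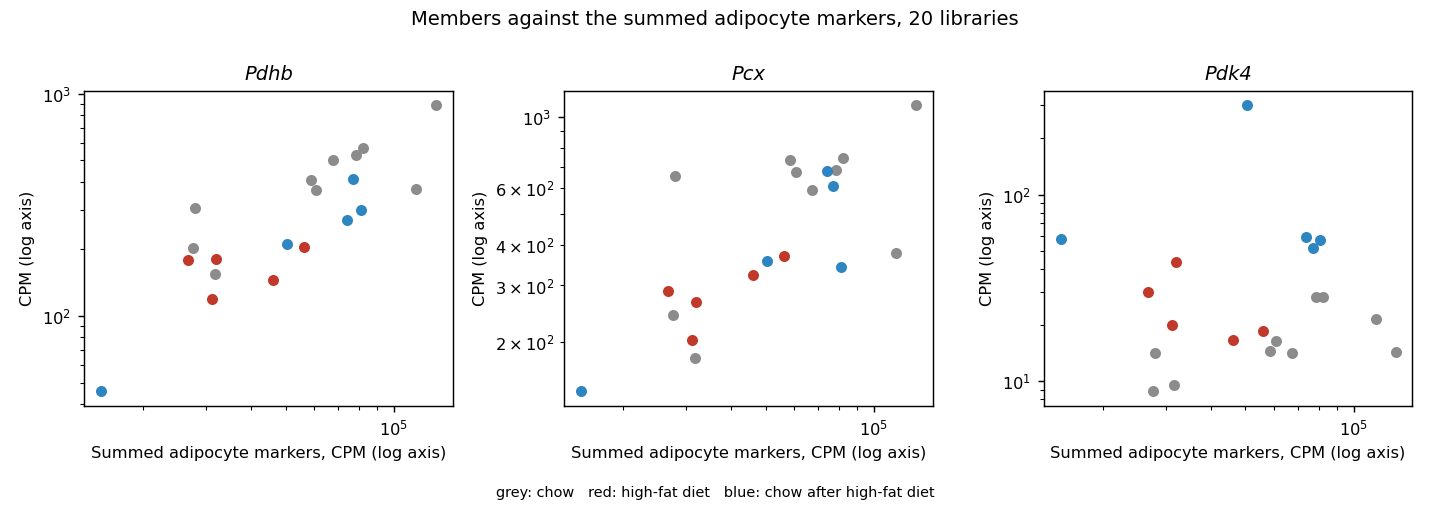
Levels of Pdhb, Pcx and Pdk4 (CPM, log axis) against the summed level of 8 adipocyte markers (CPM, log axis) in 20 libraries, coloured by diet. Pdhb and Pcx rise with the marker sum (r = 0.84 and 0.74), and Pdk4 does not follow it (r = 0.03).

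The genes whose pattern over the 20 libraries was most like that of a member were ranked by Pearson r of log2 CPM among 9360 genes with a mean log2 CPM of at least 3. For Pdk4 they were Psmb9 (r = 0.84), Stk4 (0.83) and Gna13 (0.81). HHC mouse 1, the library with the highest lymphocyte markers, had a Pdk4 log2 CPM of 8.23, and the next highest was 5.89 in HC mouse 2. The ranking without HHC mouse 1 was not computed. For Pcx they were Mknk2 (0.93), A530016L24Rik (0.92) and Npepl1 (0.91). For Mpc1 the pseudogene Mpc1-ps came first (0.98), with which it shares sequence, followed by Mrps36 and Sra1 (both 0.95).

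Other genes of pyruvate handling were counted from a list of 46, of which 45 were tested. In H 1 was called higher and 3 lower, where 3.57% and 2.92% of all tested genes were. In HC 1 was called higher and none lower (1.57% and 0.172% of all genes). In HH 2 were called higher and none lower (4.92% and 1.88%). In HHC 1 was called higher and 1 lower (0.447% and 2.67%). These counts describe the list, which was not tested as a set. Among the regulators and partners of the complex, the phosphatase gene Pdp2 was lower in H, with 13.5, 8.92 and 13.4 CPM against 23.1, 23.6 and 53.3 CPM in C (log2 fold change -1.48, SE 0.42, adjusted p = 0.0739). Pdk1 and Pdp2, a kinase and a phosphatase with opposite actions on the complex, were thus both lower in H. Pdk3 did not pass the rule in any of the 4 comparisons, with log2 fold changes from -0.93 (HH) to 0.22 (HC), nor did Pdhx (-1.19 to -0.63), Dld (-1.03 to 0.04), Pdp1 (-0.41 to 0.52) or Pdpr (-0.78 to 0.31).

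Of the genes for pyruvate supply and its other fates, Slc16a1, which encodes the lactate and pyruvate transporter MCT1, and Bsg, which encodes its chaperone basigin, were called higher in HH. Slc16a1 read 69.9 and 57.6 CPM in HH against 23.8 and 23.2 CPM in CC_l (log2 fold change 1.44, SE 0.47, adjusted p = 0.126). Bsg read 744.1 and 489.0 CPM against 280.2 and 213.5 CPM (1.32, SE 0.42, adjusted p = 0.116). In the other comparisons neither was called. Slc16a1 had negative values of -0.97 in H (SE 0.38) and -1.26 in HHC (SE 0.47), both without overlap, and of -0.65 in HC. Bsg had 0.40 in H, 0.43 in HC and -0.29 in HHC. The summed endothelial markers (Pecam1, Cdh5, Kdr and Tek) read 1072 and 606.1 CPM in HH against 109.9 and 120.8 CPM in CC_l. In HHC they read 68.4 and 79.1 CPM against 183.3 and 379.2 CPM in CCC. In H they read 949.4, 1385 and 1186 CPM against 346.2, 463.9 and 194.8 CPM in C, although Slc16a1 was lower there. The part of these cells in the Slc16a1 and Bsg values was not tested.

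Of the upstream regulators and the genes that share regulators with Pdk4 or Pdk1, Angptl4, a lipoprotein lipase inhibitor that responds to fatty acids as Pdk4 does, was called higher in H and in HC. It read 584.9, 772.9 and 360.1 CPM in H against 98.3, 120.4 and 212.8 CPM in C (log2 fold change 1.99, SE 0.43, adjusted p = 0.0240), and its log2 fold change in HC was 1.28 (SE 0.42, adjusted p = 0.536). Angptl4 was also higher, but not called, in HH (1.21, SE 0.52, edgeR adjusted p = 0.242) and HHC (0.75, SE 0.51, edgeR adjusted p = 0.625). Its groups were apart in all 4 comparisons, as were those of Pdk4. Of all tested genes 0.405% were higher without overlap in all 4.

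Ppargc1a, a coactivator of mitochondrial genes, fell in H, with 5.40, 3.21 and 3.26 CPM against 18.4, 21.9 and 11.5 CPM in C (log2 fold change -2.12, SE 0.47, adjusted p = 0.0264), where C mice 1 and 2, the higher ones, were rich in nuclear-retained RNA. Vegfa, a hypoxia-responsive growth factor gene as Pdk1 is a hypoxia-responsive kinase gene, fell in H, with 27.8, 23.0 and 42.0 CPM against 210.3, 271.3 and 93.0 CPM (-2.63, SE 0.51, adjusted p = 0.0139). In HHC Vegfa read 39.2 and 38.1 CPM against 83.3 and 338.3 CPM in CCC (-2.45, SE 0.63, adjusted p = 0.202). The high Vegfa values came from C mice 1 and 2 and CCC mouse 2, which are among the 4 libraries with the most nuclear-retained RNA, and the part of that in the difference was not tested. The comparison of HH with CC_l holds none of these libraries. There Vegfa was at -1.25 (SE 0.60, edgeR adjusted p = 0.293) and Ppargc1a at -1.29 (SE 0.56, edgeR adjusted p = 0.249). Both were lower without overlap, where 55.3% of all genes did not overlap, and neither was called. In HC the values were -0.65 for Vegfa and 0.09 for Ppargc1a.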

How the data were processed

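TRAP RNA of epididymal adipocytes from 20 mice in 8 groups was sequenced. The deposited table holds raw read counts per Ensembl gene, which the authors made with FastQC 0.11.9, Trim Galore 0.6.6, HISAT2 2.2.1 and featureCounts of Subread 2.0.1 on mm10, per the submitters' processing notes. The annotation, strand and read-pair settings of the counting are not given in the sources used here. Between 74.5% and 89.2% of nonzero counts per library were even, so halved counts were tried as an alternative.

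Symbols and positions were taken from GENCODE vM21, which matched 98.2% of the 46078 genes. Counts were TMM-scaled and fitted with edgeR 4.0.16 (R 4.3.3) by the quasi-likelihood test over all 20 libraries and 8 groups, after filterByExpr had left 21464 genes. CPM values were computed with TMM library sizes, and levels between genes were compared only per kilobase of annotated exon. A gene was called at a nominal p under 0.01 with a log2 fold change of 1 or more in size, and p-values were adjusted by Benjamini-Hochberg over all tested genes. Ratios within a library were compared by exact two-sided permutation tests. The edgeR step was tested on simulated counts.

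Named genes were the 9 members, the pathway genes called in any comparison, the genes that complete the complex or its regulators, the 3 genes most correlated with Pdk4, Pcx and Mpc1, and genes sharing sequence or exons with a member. A pathway gene that met this rule is not reported here by name, though it stays in the counts of other pathway genes by setting. The members, lists and tests were chosen with earlier results of these data known. Replicates are mice, numbered by the labels. Alternatives were RLE scaling, DESeq2 1.42.0, the likelihood ratio test, no filter, only the compared groups, a replicate block, halved counts, each mouse left out, and nuclear-retained RNA (Malat1, Neat1 and Meg3) by exclusion or as a covariate, the last 2 added after the data were seen.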

Additional observations from a re-analysis of the deposited data

Results flagged for a closer look

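For Pdk4 the effect in HH and the effect in HHC differed at a nominal edgeR p of 0.00394, with a difference of -2.40 on the log2 scale, and the adjusted p was 0.116. Both HH mice and both HHC mice lay above their controls, and the difference was -0.72 without HHC mouse 1.

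For Pdk2 the effects in HH and HHC differed at a nominal edgeR p of 0.0195, with a difference of -2.49 and an adjusted p of 0.225. Both HH mice lay below both CC_l mice, while the HHC mice overlapped the CCC mice. Leaving out each mouse in turn gave differences from -3.04 to -2.06. Neither difference passed an adjusted threshold of 0.05.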

How the results depend on the processing

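Pdk4 was called in HHC under each alternative of the call rule, leaving out each mouse included, at log2 fold changes from 2.00 to 4.40, and kept its direction in all 4 comparisons. Other calls moved. Of the 9 members, RLE scaling called 2 in H and 1 in HH, DESeq2 called 2 in H, 1 in HC and 1 in HH, the likelihood ratio test 2 in H and 1 in HH, and no filter on low counts 3 in H, 1 in HC and 1 in HH. With only the compared groups 0 were called in H (1458 of 17091 genes), 1 in HC (243 of 16034) and 5 in HH (1894 of 17667). With halved counts 0 were called in H (1474 of 18985 genes). An adjusted p under 0.05 left 0 in H and 0 in HHC. Members whose effects differed between HH and HHC numbered 1 for DESeq2, 1 in the likelihood ratio test and 2 without a filter. For these differences no count over all genes was kept beside them. Without the 4 libraries rich in nuclear-retained RNA 4 members were called in HH (2472 of 22811 genes). Pcx in HC turned to 0.05 and Pdha1 in HHC to -0.24. With that RNA as a covariate 5 were called in H, 1 in HC and 5 in HH, Pdk2 in HC turned to -0.05 and Pdha1 in HHC to -0.31. The cause of these changes was not tested.

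Of the other pathway genes, RLE scaling called 1 in HH, DESeq2 called 8 in H, 2 in HC and 5 in HH, no filter 9 in H, 2 in HC and 4 in HHC, and only the compared groups 6 in HH and 1 in HHC. Without the 4 libraries 16 were called in H, 0 in HC and 9 in HH, and with the covariate 18 in H, 4 in HC, 7 in HH and 6 in HHC.

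Leaving out each mouse in turn gave 0 to 2 members called in H, and of the other pathway genes 0 to 1 in HC, 0 to 2 in HH and 1 to 4 in HHC. Members with differing effects between HH and HHC were 0 to 1. In H the log2 fold changes ran from -1.05 to 0.44 for Dlat, -0.49 to 0.67 for Pdk2, -1.08 to 0.50 for Pcx and -0.80 to 1.42 for Mpc2. In HC they ran from -0.32 to 0.51 for Pdk2, -0.68 to 0.09 for Pcx and -0.81 to 1.36 for Mpc1, and in HH from -0.52 to 0.17 for Dlat. In HHC they ran from -0.51 to 1.26 for Pdha1, -0.73 to 0.68 for Pdk1, -3.63 to 1.72 for Mpc1 and -1.13 to 1.76 for Mpc2. The difference between the H and HC effects of Pdk2 ran from -0.72 to 0.58. A group left with 1 mouse was assumed to vary like the others.

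Correlations of the deviations of same-numbered mice from their group means ran from -0.28 to 0.19. In the longer arm the 2 mice of a group mirror each other, so both numbers give the same value. These values do not settle whether the replicate numbers pair the mice. With the replicate block 0 members were called in H, and 0 other pathway genes in HC and 0 in HH. Crossing the numbers in the block called 1181 genes in HH and 435 in HHC, against 1040 and 375 uncrossed.

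Counts over all genes were 1392, 374, 1458 and 669 in H, HC, HH and HHC. DESeq2 called 2252, 970, 2385 and 1269, the likelihood ratio test 2092, 972, 2029 and 1190, and the fit without a filter 2492, 1764, 2879 and 1266. RLE scaling called 1399, 356, 1440 and 577. With only the compared groups HC had 243 and HHC 218. The replicate block gave 1032, 204, 1040 and 375, and the covariate 2720, 488, 3212 and 758, in the same order of comparisons. Each member had at least 144 counts in each library, and the biological coefficient of variation over all genes was 0.680 with groups of 2 or 3 mice.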
